A study of Mus musculus with 6 samples.

Results

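Immune checkpoint blockade was compared with no blockade in tumours of mice fed standard chow. The cells were those that the deposited cell table assigned to 3 tumours on standard diet (SD, 1215 cells) and to 3 tumours on standard diet with blockade (ICB, 2314 cells), which made 3529 of the 5749 cells of the series. Cells were chosen by their treatment label, and no measured value entered the choice. All tumours grew in C57Bl6 mice from PPS-ICBR cells, a line of prostate cancer that the labels describe as resistant to blockade. The ICB mice received 0.2 mg of antibodies against PD-1 and CTLA-4 biweekly, and the SD mice received neither. The 6 remaining tumours of the series came from mice on food with 1,3-butanediol (BD), 3 of them with the same blockade, and are used here only to share the estimate of spread and for one test of diet. Each tumour was dissociated, the leukocyte layer of a Percoll gradient was taken, and cells carried 1 hashtag antibody per tumour. The labels name tumours and no mice, so the spread between tumours is the error throughout, and nothing states whether 2 tumours shared an animal.

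The SD and BD tumours were pooled in one 10x library, and the ICB and combined tumours in the other. Library and blockade therefore cannot be told apart in any comparison of SD with ICB. A step of library making that acted alike on all cells would shift a gene alike in every cell class, and for that reason each change is given below as either shared by the classes or departing from them. The tumours held between 278 and 913 cells and between 2562087 and 13007506 unique molecular identifiers (UMIs, counts of captured RNA molecules), with medians of 4544 to 8404 UMIs per cell. No barcode was shared by SD and ICB cells (0). The listed tumour sizes, whose unit is not stated, were 2348, 1216 and 870 in SD and 1116, 995 and 289 in ICB, with means of 1478 ± 773 and 800 ± 447 (SD, n = 3). These sizes overlapped between the groups.

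PD-1 and CTLA-4 are receptors that T cells display after activation and that restrain them. PD-1 is engaged by PD-L1 (gene Cd274) on tumour and myeloid cells, and CTLA-4 competes with CD28 for the costimulatory ligands of dendritic cells. Antibodies that block both can restore T cell activity. Activated CD8 T cells then release interferon-gamma, which acts through transcription factors such as IRF1 in surrounding cells and induces guanylate-binding proteins, MHC class I presentation, the chemokines CXCL9 and CXCL10, and PD-L1 itself.

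CD8 and CD4 T cells made up a larger share, and mesenchymal cells a smaller share, of the blockade tumours. CD8 T cells were 2.64%, 2.88% and 2.30% of the cells of the SD tumours and 14.2%, 8.96% and 5.04% of those of the ICB tumours. All 3 ICB tumours lay above all SD tumours, and the group means were 2.61% ± 0.289 and 9.39% ± 4.59 (SD, n = 3). CD4 T cells were 0.721%, 0.36% and 0% in SD and 3.12%, 2.11% and 2.85% in ICB. The value of 0 came from 521 cells, which allows a share of up to 0.576%. Mesenchymal cells went the other way, with 11.5%, 14.0% and 10.9% in SD and 3.73%, 4.22% and 1.64% in ICB. Every SD tumour exceeded every ICB tumour there. This class carried collagen genes, and also epithelial markers at levels like those of the Prof_cancer class, as given further on.

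Among myeloid classes, the monocytes named for Vcan were 2.16%, 3.60% and 0.96% of SD cells and 4.33%, 5.45% and 13.3% of ICB cells. The Mac_M1 macrophages were 3.85%, 1.44% and 2.11% in SD and 5.89%, 5.98% and 7.23% in ICB. Macrophages named for matrix metalloproteinases (Mac_M2_Mmp+, 3.37% to 5.40% in SD and 5.53% to 8.26% in ICB) and neutrophils named for Ifit genes (Neu_Ifit+, 0.36% to 1.92% and 2.63% to 4.92%) were also higher in every ICB tumour. The large Mac_M2_Trem2+ class, named for the lipid receptor gene Trem2, overlapped, with 20.4%, 19.4% and 22.3% in SD and 28.0%, 5.10% and 2.85% in ICB. ICB tumour 1 was the highest of the 6 tumours for this class and the other 2 ICB tumours were the lowest. The 2 large neutrophil classes overlapped as well, and so did NK cells (means 3.63% in SD and 1.90% in ICB) and regulatory T cells (0.584% and 0.430%).

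In all, 7 of 19 classes did not overlap between the groups, 6 of them higher and 1 lower in ICB. Each of these 7 had a two-sided exact permutation p of 0.1, the smallest that 3 against 3 tumours can give, and an adjusted p of 0.271 over the 19 classes. A quasi-likelihood test on cell numbers per class (edgeR) called 4 classes. The log2 ratio of ICB to SD was -1.93 for mesenchymal cells (adjusted p = 0.00269), 1.85 for CD8 T cells (0.00476), 1.84 for Vcan monocytes (0.00911) and 2.93 for CD4 T cells (0.0161). Shares are of the cells recovered after the gradient and sum to the whole of a tumour's cells, so a larger share is not a larger number of cells in the tumour. Within a class, in turn, less RNA per cell and fewer cells of a kind cannot be told apart in summed counts.

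**Figure D1:**
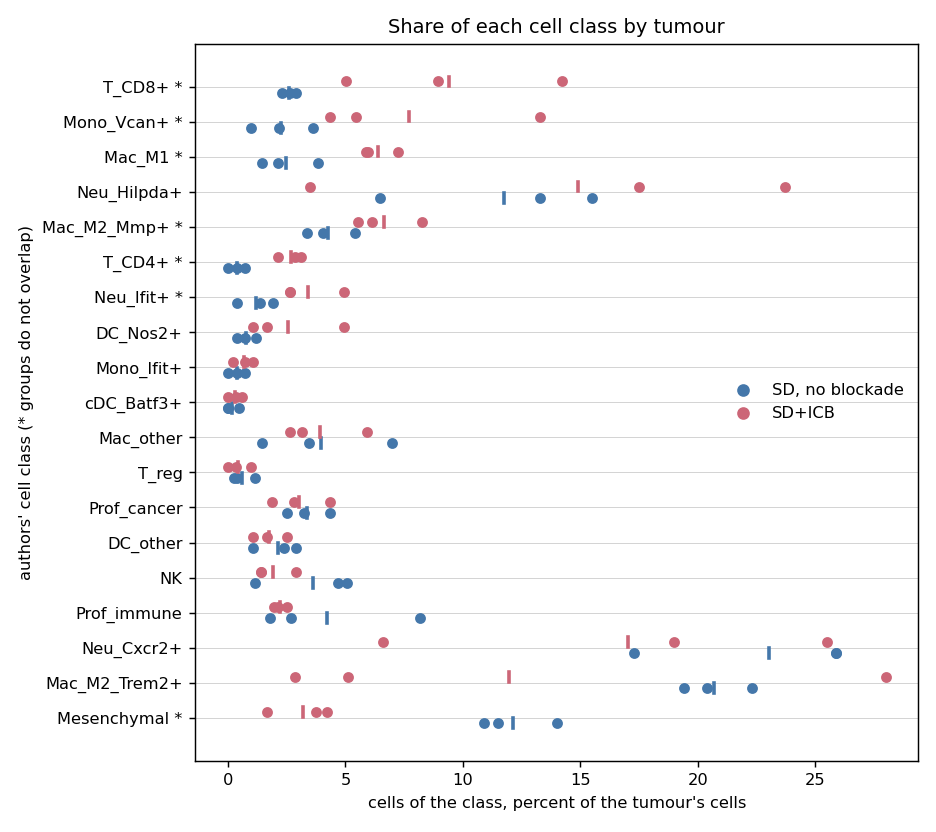
Share of each of the authors' 19 cell classes (horizontal axis, percent of a tumour's cells) in the 3 standard diet tumours (blue) and the 3 blockade tumours (red), with each tumour as a point and the group mean as a vertical bar. CD8 T cells lie at 2.30% to 2.88% in SD and 5.04% to 14.2% in ICB, and mesenchymal cells at 10.9% to 14.0% and 1.64% to 4.22%.

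Changes shared by cell classes were tested on 5 classes that had at least 10 cells in each of the 6 tumours: the Cxcr2 and Hilpda neutrophils, the Mmp and Trem2 macrophages, and the mesenchymal cells. For every tumour, the log2 CPM of a gene (its count scaled to the class's total) were averaged over the 5 classes with equal weight, so that the makeup of a tumour did not enter. Of 1850 genes tested with limma, 273 rose (14.8%) and 314 fell (17.0%) in ICB at an adjusted p under 0.05. The same sign in all 5 classes was seen for 190 of the raised and 245 of the lowered genes. The median log2 fold of all tested genes was 0.04. Without ICB tumour 1, the number of called genes was 383 in place of 587.

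Genes of the interferon-gamma response rose together. Of the 23 genes on that list, 11 passed the filter in all 5 classes, and 11 rose, with a median log2 fold of 1.91. The filter can admit a gene expressed in 1 treatment group alone, so this count partly follows from the filter. Gbp7, a guanylate-binding protein of cell-autonomous defence, had a mean log2 CPM of 5.09, 4.84 and 4.81 in SD and 7.15, 6.72 and 6.81 in ICB. Its log2 fold was 1.98 (SE 0.18, adjusted p = 4.1e-06), with single-class values of 2.73 in mesenchymal cells, 2.65 and 2.68 in the neutrophil classes, and 1.00 and 0.84 in the Mmp and Trem2 macrophages. Irf1, the transcription factor that carries the signal on, stood at 6.92, 7.46 and 7.18 in SD and 8.14, 8.22 and 8.50 in ICB, a log2 fold of 1.10 (SE 0.14). Neither gene overlapped between the groups. The chemokine genes Cxcl9 and Cxcl10 rose by 2.50 and 1.60, with adjusted p of 0.0419 and 0.0200. Some SD levels were near the floor. Cxcl9 had 3 counts in SD and 76 in ICB in Cxcr2 neutrophils, and 1 and 26 in Hilpda neutrophils. Gbp7 had 3 counts in SD and 68 in ICB in Hilpda neutrophils. Without ICB tumour 3, 7 of the 11 genes were called.

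Cd274, which encodes the PD-L1 ligand of PD-1, rose in the average of the classes. Its mean log2 CPM was 6.85, 6.35 and 6.72 in SD and 8.04, 7.67 and 7.97 in ICB, a log2 fold of 1.25 (SE 0.15, adjusted p = 3.0e-05). The values of single classes were 1.89 in Trem2 macrophages, 1.82 in Cxcr2 neutrophils, 1.04 in Mmp macrophages, 0.76 in mesenchymal cells and 0.74 in Hilpda neutrophils. In the test of each class alone, only Cxcr2 neutrophils passed among these 5 (log2 fold 1.82, adjusted p = 2.4e-04), with 226, 101 and 138 CPM in SD and 626, 519 and 493 CPM in ICB. In the Prof_cancer class its log2 fold was -0.56 (adjusted p = 0.718).

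MHC class I presentation followed. All 10 of its genes that were tested rose, with a median log2 fold of 1.07, from the light chain gene B2m (0.95, adjusted p = 9.3e-04) to the peptide transporter gene Tap1 (1.70) and the immunoproteasome subunit gene Psmb9 (1.31, adjusted p = 1.4e-04). No gene of the 5 tested on the MHC class II list was called in this average, and their values ran from -0.17 for Ctss to 0.83 for H2-Aa. Of the type I interferon list, 2 of 5 tested genes rose, Ifi204 by 0.80 and Oasl2 by 1.05.

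Genes of early NF-kB signalling and interleukin-1 control rose as well. Ptgs2, the cyclooxygenase of inflammatory prostaglandin synthesis, had a mean log2 CPM of 9.01, 8.91 and 8.91 in SD and 10.10, 10.11 and 10.06 in ICB. Il1rn, the interleukin-1 receptor antagonist, stood at 8.56, 8.74 and 8.59 in SD and 9.90, 9.78 and 9.84 in ICB. Their log2 folds were 1.15 and 1.21 (SE 0.09 each, adjusted p = 1.2e-06 each), and the 2 groups lay clearly apart for both. Of 18 tested genes of the NF-kB list, 13 rose, with a median log2 fold of 0.51, including Nfkb1 (0.88) and the feedback inhibitor Tnfaip3 (0.97, with 8.15 to 8.52 in SD and 9.14 to 9.48 in ICB). The number called was 8 without SD tumour 1, 8 without SD tumour 3 and 7 without ICB tumour 2. The interleukin-1 cytokines themselves were not called, with 0.18 for Il1b (adjusted p = 0.501) and 0.92 for Il1a (0.143), whereas the decoy receptor gene Il1r2 fell by 0.73.

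Cytosolic ribosomal protein genes made up a large lowered group. Of 83 tested, 81 fell. Rps18, a protein of the small subunit, stood at 10.77, 10.91 and 10.79 mean log2 CPM in SD and at 9.80, 9.92 and 9.98 in ICB, and fell by 0.92 (SE 0.08, adjusted p = 4.8e-06). Nuclear genes of oxidative phosphorylation also fell, 11 of 17 tested with a median of -0.33, for example Cox4i1, a subunit of cytochrome c oxidase (-0.53). Glycolysis genes were split, as 7 of 14 fell, among them Ldha (-0.40) and Pgam1 (-0.45), and 1, the hexokinase gene Hk2, rose by 0.53. Of 10 transcripts of the mitochondrial genome 3 rose, mt-Nd2 (0.37), mt-Nd4 (0.39) and mt-Nd5 (0.44). Without SD tumour 3 or without ICB tumour 1, 6 oxidative phosphorylation genes were called.

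Gm42418, a gene model that overlaps a ribosomal RNA repeat, rose in the same average by 1.13 (SE 0.09, adjusted p = 1.9e-06). It took 2.45%, 1.56% and 3.21% of the counts of Mmp macrophages in SD and 8.49%, 8.61% and 9.32% in ICB, while ribosomal protein genes took 21.1%, 23.1% and 20.2% in SD and 13.6%, 11.4% and 10.7% in ICB. Both shares separated the groups without overlap in this class. Among CD8 T cells the ribosomal protein share was 40.7% in both SD tumours with enough cells and 26.3% to 30.9% in ICB. In the Prof_cancer class it was 22.2% and 22.1% in SD and 22.1%, 21.1% and 20.8% in ICB, and in the Prof_immune class 18.5% and 18.6% in SD and 18.8%, 17.0% and 16.9% in ICB. Gm42418 nevertheless differed in both, with 0.819% and 0.445% in SD and 1.09%, 1.09% and 1.24% in ICB in Prof_cancer, and 3.12% and 3.70% in SD and 7.02%, 7.11% and 7.97% in ICB in Prof_immune. The ribosomal share was thus nearly level in 2 classes where Gm42418 was higher in every ICB tumour, with median log2 folds over ribosomal protein genes of -0.11 and -0.07, against -0.98 in Mmp macrophages and -0.80 in Trem2 macrophages. When ribosomal protein genes were left out before scaling, 448 shared genes were called. The part of library making in these shifts was not tested.

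**Figure D2:**
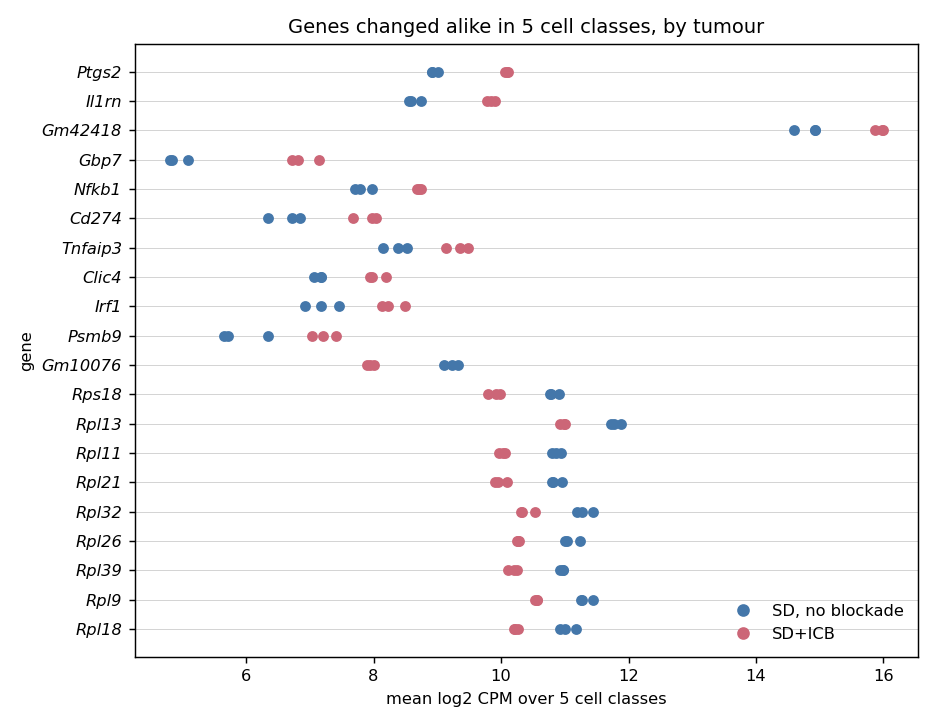
Mean log2 CPM over 5 cell classes (horizontal axis) for the 10 raised and 10 lowered genes with the smallest adjusted p, each tumour a point (SD blue, ICB red). The groups do not overlap for any of the 20 genes, which largely follows from choosing them by p in the same test. Gbp7, for example, lies at 4.81 to 5.09 in SD and 6.72 to 7.15 in ICB.

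**Figure D3:**
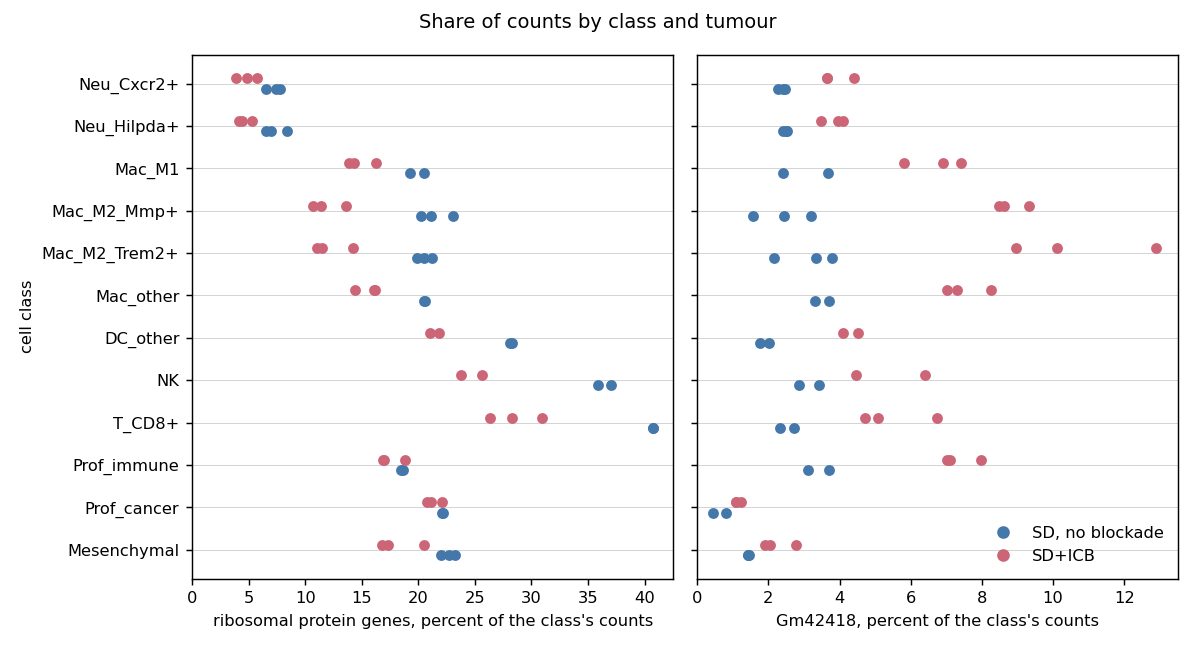
Percent of a class's counts taken by ribosomal protein genes (left) and by Gm42418 (right) in each of 12 classes, each tumour a point (SD blue, ICB red). The ribosomal share is lower in ICB in most classes (Mmp macrophages, 20.2% to 23.1% in SD and 10.7% to 13.6% in ICB) and nearly level in Prof_cancer and Prof_immune.

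Promoters of 3 of the raised genes are shown because the induced group held genes downstream of interferon-gamma and of NF-kB, whose binding sequences are known. The sequences are the 250 bases before the transcription start in RefSeq on GRCm38.p6, written along the gene, with motif matches in capitals. The motifs searched on both strands were the interferon-gamma activated site TTCNNNGAA, the interferon-stimulated element (GAAA, any 2 bases, GAAA) and an NF-kB element (GGG, any 2 bases, TTTCC). Gbp7 (chr3:142530086-142530335, plus strand) held 2 matches to the first and 1 to the second, Irf1 (chr11:53769764-53770013, plus strand) 1 match to the first, and Tnfaip3 (chr10:19015411-19015660, minus strand) 1 match to the third.
Gbp7: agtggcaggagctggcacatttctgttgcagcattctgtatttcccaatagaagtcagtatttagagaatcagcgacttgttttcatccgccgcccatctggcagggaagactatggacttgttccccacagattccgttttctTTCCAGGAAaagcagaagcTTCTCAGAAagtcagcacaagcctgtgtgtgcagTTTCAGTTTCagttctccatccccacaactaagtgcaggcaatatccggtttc
Irf1: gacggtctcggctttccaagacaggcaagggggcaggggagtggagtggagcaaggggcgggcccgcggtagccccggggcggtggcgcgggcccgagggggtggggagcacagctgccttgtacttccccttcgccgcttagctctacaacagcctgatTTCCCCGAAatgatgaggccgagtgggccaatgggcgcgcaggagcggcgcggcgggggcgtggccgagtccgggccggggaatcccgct
Tnfaip3: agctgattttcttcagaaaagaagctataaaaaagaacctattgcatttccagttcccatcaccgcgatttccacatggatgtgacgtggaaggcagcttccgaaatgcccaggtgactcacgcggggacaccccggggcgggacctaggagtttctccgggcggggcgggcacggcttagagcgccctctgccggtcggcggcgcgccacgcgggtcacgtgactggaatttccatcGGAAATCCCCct
Of the 217 raised genes with a promoter sequence, 8.29% held the first motif, 6.91% the second and 4.15% the third. The shares were 7.18%, 3.04% and 1.40% among all 27025 promoters, 5.42%, 3.79% and 2.17% among the 1476 tested genes, and 4.88%, 4.47% and 0.813% among the 246 lowered genes. These are counts of letters and no measure of binding. The windows of Ptgs2, Il1rn, Cd274, Clic4 and Psmb9 held none of these letters.

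Within single classes, 12 classes with at least 10 cells in at least 2 tumours of each group were tested one at a time with edgeR. Over all 61706 pairs of gene and class, 1505 were called, 633 raised and 872 lowered. In 5 classes (Mac_M1, Mac_other, Prof_cancer, Prof_immune and CD8 T cells) 2 SD tumours entered, as SD tumour 2 had too few cells, and in DC_other and NK cells 2 tumours of each group entered.

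Cxcr2 neutrophils showed the highest median of the interferon-gamma list. Of 2961 genes, 1.52% rose and 0.236% fell in this class, against 10 of 16 interferon-gamma genes raised, with a median log2 fold of 2.65. Gbp2 measured 136, 71.1 and 116 CPM in SD and 1059.7, 728 and 629.8 CPM in ICB, a log2 fold of 2.88 (SE 0.32, adjusted p = 1.6e-06). Ifi47, an interferon-induced GTPase, measured 6.47, 5.93 and 25.1 CPM in SD and 217, 125 and 157 CPM in ICB. For both genes the lowest ICB tumour lay several-fold above the highest SD tumour. The chemokine gene Cxcl10 rose from 51.8, 160.0 and 59.7 CPM to 878, 342 and 575 CPM (log2 fold 2.75, adjusted p = 0.00198). Of 5 MHC class II genes 2 also rose, Cd74 by 1.56 and H2-Aa by 1.65, at levels that remained low (23.7 to 45.3 CPM in SD and 82.0 to 124 CPM in ICB for H2-Aa). Summed macrophage markers were level, at 684 to 800.4 CPM in SD and 519.8 to 1014 CPM in ICB. Without SD tumour 2, SD tumour 3 or ICB tumour 2, 19, 19 or 33 genes were called in place of 52.

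Hilpda neutrophils, named for a lipid droplet gene induced by low oxygen, showed an inflammatory group beside the interferon genes. In this class 3.95% of 2227 genes rose and 2.07% fell. Of 18 genes of the NF-kB list 9 rose, with a median log2 fold of 0.87, and of 10 chemokine genes 5 rose. Cxcl3, a neutrophil attractant, measured 1657, 1476 and 2092 CPM in SD and 3721, 4446 and 3656 CPM in ICB (log2 fold 1.17, adjusted p = 0.00159). Nlrp3, the inflammasome sensor, rose by 1.20 and Il1rn by 1.52, and Thbs1, a secreted matrix glycoprotein, measured 1457, 610.3 and 1350.3 CPM in SD and 5043, 3885 and 4492 CPM in ICB. None of these genes overlapped between the groups. Lowered genes included the alarmins S100a8, with 31753, 28219.6 and 28873 CPM in SD and 16256, 22352 and 14749.5 CPM in ICB (fell by 0.73 on the log2 scale, adjusted p = 0.015), and S100a9, which fell by 0.76. Chil3, a chitinase-like protein, fell by 3.71, with 386, 333 and 359 CPM in SD and 0, 39.5 and 21.8 CPM in ICB. Without SD tumour 2, SD tumour 3, ICB tumour 1, ICB tumour 2 or ICB tumour 3, 66, 46, 77, 86 or 89 genes were called in place of 134.

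Genes of MHC class I presentation rose in cancer and in mesenchymal cells. In the test against the other classes, described further on, 0 of 18 class I genes departed in Prof_cancer and 1 of 18, H2-K1, in mesenchymal cells. That test called 0.0745% of all pairs of gene and class, so the count of 0 says little about class I genes. In the Prof_cancer class, where 0.364% of 9613 genes rose and 0.187% fell, 10 of 18 class I genes rose, with a median of 1.40. H2-K1, a heavy chain that presents peptides to CD8 T cells, measured 294 and 281 CPM in SD and 778, 777 and 858 CPM in ICB (log2 fold 1.48, SE 0.11, adjusted p = 1.1e-05). Of the epithelial markers Krt8, Krt18 and Cldn3 were detected in both groups in this class, with Krt8 at 582 to 1089.8 unscaled CPM in SD and Cldn3 at 46.5 to 61.9 in SD and 17.7 to 37.7 in ICB, whereas Epcam was at 0 in both SD tumours and at most 3.97 in ICB, and Krt5 was at 0 throughout. In the same cells Dcn reached 934 to 1129 unscaled CPM in SD. The division gene Mki67 measured 199 and 206 CPM in SD and 229, 234 and 281 CPM in ICB, with an adjusted p of 0.438. The groups also differed in depth and in markers of other cells, with median UMIs per cell of 61792 to 70511 in SD and 120545 to 121658 in ICB, and summed neutrophil markers of 1031 and 2149 CPM in SD and 78.1, 794 and 105 CPM in ICB, none of 7 called. Their part in the result was not tested. Without SD tumour 1 or SD tumour 3, 18 or 26 genes were called in this class in place of 53.

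In mesenchymal cells, 1.96% of 8247 genes rose and 2.47% fell, and 15 of 18 class I genes rose, with a median log2 fold of 1.57. H2-K1 measured 459, 452 and 228 CPM in SD and 1511, 1137 and 1177 CPM in ICB (log2 fold 1.75, adjusted p = 0.0197). Of 17 interferon-gamma genes 10 rose, among them Gbp3 from 10.9, 10.2 and 6.17 CPM to 60.2, 53.5 and 83.6 CPM. Of 21 proliferation genes 9 fell, such as the cyclin gene Ccnb1 (29.1, 42.3 and 36.2 CPM in SD and 3.76, 3.74 and 6.43 CPM in ICB). Without SD tumour 2, SD tumour 1, SD tumour 3 or ICB tumour 2, the 366 calls in this class became 89, 219, 166 or 138. The 2 groups of mesenchymal cells also differed in depth, with median UMIs per cell of 9134, 10635 and 8959 in SD and 62845, 57220.5 and 28725 in ICB. Summed macrophage markers were 2094 to 4107 CPM in SD and 145 to 922 CPM in ICB, with 3 of 12 lowered, and summed mesenchymal markers 5797 to 12434 and 9516 to 18513 CPM. Summed epithelial or cancer markers were 889 to 1337 CPM in SD and 837 to 1443 CPM in ICB. In Prof_cancer they were 691 to 1351 and 942 to 1211 CPM, so these markers did not separate the 2 classes. The part of cancer cells in the mesenchymal class was not tested.

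In a comparison added after seeing the data, the class was restricted to mesenchymal cells of at least 20000 UMIs, which were 31.6% to 35.9% of the class in SD and 53.3% to 91.7% in ICB. In those cells, of 8010 genes tested within the class, 104 rose and 157 fell. Of 16 interferon-gamma genes 11 rose and of 18 class I genes 10 rose, whereas of 21 proliferation genes 2 fell. Macrophage markers still differed there, with 3069.6, 2787 and 2218 CPM in SD and 599, 145 and 129.8 CPM in ICB.

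**Figure D4:**
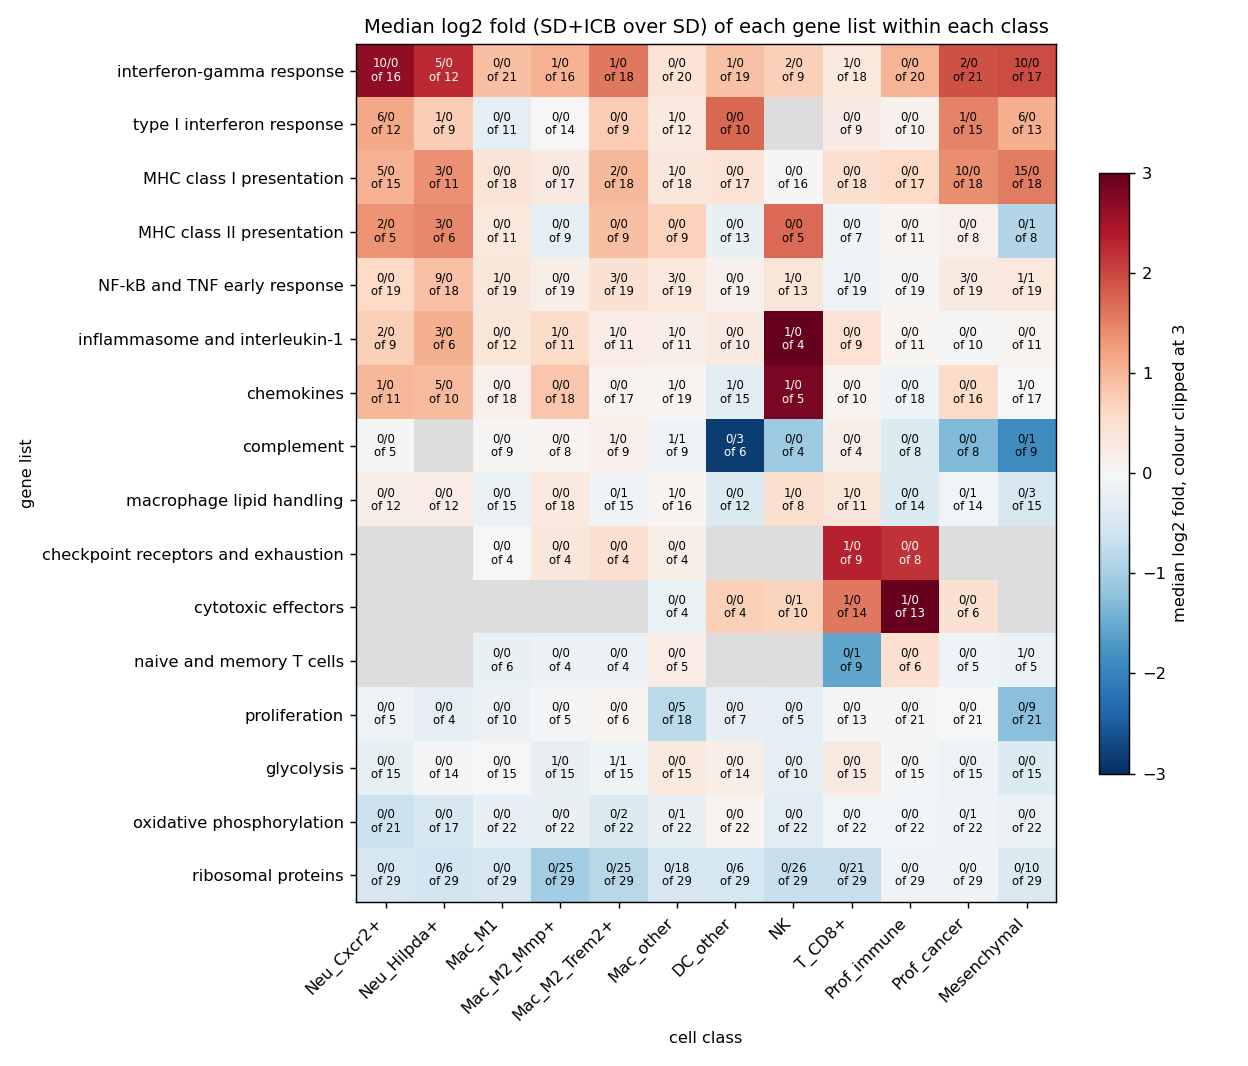
Median log2 fold of ICB over SD (colour, clipped at 3) for 16 gene lists (rows) in 12 cell classes (columns), with the numbers raised, lowered and tested in each cell; grey marks lists with fewer than 4 tested genes. The interferon-gamma list has its highest median, 2.65, in Cxcr2 neutrophils, and ribosomal proteins are negative in all 12 classes.

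CD8 T cells rested on few cells in SD, 11 and 12 cells in the 2 tumours tested, against 118, 51 and 46 in ICB. Of 5375 genes 0.800% rose and 1.40% fell. Checkpoint receptor genes were all on the positive side, with 9 of 9 tested folds above 0 and a median of 2.30, but 1 passed the test. The signs are no test, because a gene with few SD counts could pass the filter on its ICB level alone. Havcr2 had 0 counts in SD and 72 in ICB, and Entpd1 0 and 48. Ctla4, the target of one of the antibodies, measured 15.6 and 23.9 CPM in SD and 228, 169.9 and 179.9 CPM in ICB (log2 fold 3.35, SE 0.59, adjusted p = 0.00146). Its SD level rested on 2 counts over both tumours, against 292 in ICB. The ratio from these counts was 11.7, with an interval of 3.22 to 97.5 for counting error only. Pdcd1, which encodes PD-1, measured 0 and 167 CPM in SD and 449, 334 and 192 CPM in ICB, without overlap and with an adjusted p of 0.36. Havcr2, the exhaustion-associated receptor TIM-3, was at 0 in both SD tumours and at 59.1, 61.3 and 7.82 CPM in ICB.

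Cytotoxic effector genes in CD8 T cells had 13 of 14 folds above 0 and a median of 1.58, and 1 was called, the granule gene Nkg7 (796 and 1315 CPM in SD and 1794, 1941 and 1572 CPM in ICB, log2 fold 0.78). Here too the signs are no test, as Prf1, for example, had 1 count in SD and 243 in ICB. Gzmb, which encodes granzyme B, measured 187 and 430.4 CPM in SD and 774, 451 and 512 CPM in ICB (adjusted p = 0.209), and Ifng 31.2 and 47.8 CPM in SD and 142, 94.7 and 66.5 CPM in ICB (adjusted p = 0.478). Naive and memory genes lay on the other side, with 1 of 9 folds above 0 and a median of -1.55. Tcf7, a transcription factor of memory-like cells, was lower in each ICB tumour (140.5 and 215 CPM in SD and 29.5 to 69.6 CPM in ICB) with an adjusted p of 0.0857. Cxcr6, a chemokine receptor of tissue-resident T cells, had no count in SD and 292, 306 and 352 CPM in ICB, at least 11.7-fold higher against a floor of 3 counts over the group. The defining markers of the class were present in both groups, with Cd8a at 109 and 287 CPM in SD and 738, 568 and 489 CPM in ICB. Summed T cell markers were 3907 and 3908 CPM in SD and 5933 to 7134 CPM in ICB, with 4 of 11 raised, and B and plasma cell markers 327 to 497 CPM in SD and 10.6 to 109 CPM in ICB. Summed NK cell markers, whose cells carry the same cytotoxic genes, were 95.3 and 158 CPM in SD and 697, 249 and 331 CPM in ICB, without overlap, with 0 of 4 called and a median log2 fold of 2.63. Their part in the cytotoxic folds was not tested. Without SD tumour 1 or SD tumour 3, 8 or 78 genes were called in this class in place of 118.

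In the Prof_immune class 0.0182% of 5481 genes rose and 0.0182% fell, 1 gene each. The raised gene was Gzmb, with 2.22 and 0 CPM in SD and 193, 207 and 71.7 CPM in ICB (log2 fold 6.31, adjusted p = 0.017). Its fold rested on 1 count in SD, against 147 in ICB. All 13 tested cytotoxic genes had folds above 0, which is no test, as such genes could pass the filter on their ICB level alone. Prf1 had 0 counts in SD and 25 in ICB, Ifng 0 and 18, and Xcl1 1 and 67. Summed T cell markers in this class were 222 and 0 CPM in SD and 1482, 430.1 and 914 CPM in ICB, and macrophage markers 19125 to 23116 CPM in SD and 10214 to 20223 CPM in ICB. The lowered gene, Rgs10, is a regulator of G protein signalling. Both numbers rest on single tumours, as 0 genes were called without SD tumour 1, without SD tumour 3 or without ICB tumour 1, and 6 without ICB tumour 2.

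In the macrophage classes few interferon-gamma genes passed the test, but their folds were not shown to differ from those of other classes. In the test against the other classes, 0 of 21 genes of the list departed in any of the 12 classes. That test called 0.0745% of all pairs of gene and class, so the count of 0 does not show that the classes were alike. In Trem2 macrophages 2.28% of 5049 genes rose and 3.45% fell, and 1 of 18 interferon-gamma genes rose, although all 18 folds were above 0 with a median of 1.58. The filter could admit such genes on their ICB level alone, so the count of signs is no test. Trem2 itself measured 741, 709 and 667 CPM in SD and 447, 384 and 393 CPM in ICB, without overlap (log2 fold -0.78, adjusted p = 0.0226). H2-K1 measured 1461, 857 and 911 CPM in SD and 2798, 2177 and 2032 CPM in ICB (log2 fold 1.12, adjusted p = 0.0221). Without ICB tumour 1, which gave most ICB cells of this class, 9 genes were called in place of 289, and without SD tumour 1, 2 or 3, 129, 139 or 100. In Mmp macrophages 0.614% of 4723 genes rose and 2.35% fell, and 69 of the lowered genes encoded ribosomal proteins. Arg1, the arginase of alternatively activated macrophages, measured 1929, 1895 and 3321 CPM there in SD and 4296, 7283 and 5487 CPM in ICB, with every ICB tumour above every SD tumour (log2 fold 1.25, SE 0.23, adjusted p = 0.00199). The 140 calls in Mmp macrophages became 82 and 69 without SD tumours 1 and 2, and 75 and 68 without ICB tumours 2 and 3.

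In the Mac_M1 class 0.0298% of 6701 genes rose and 0.0149% fell, which were Ptgs2, Malt1 and Gm10076. Ptgs2 measured 175 and 264 CPM in SD and 1225, 962 and 914 CPM in ICB (log2 fold 2.26, adjusted p = 0.00241), and Malt1, a signalling protease upstream of NF-kB, 234 and 148 CPM in SD and 534, 493 and 582 CPM in ICB. DESeq2 called 104 genes in this class, and edgeR called 38 without ICB tumour 2 and 13 without SD tumour 1. In the Mac_other class 1.60% of 5556 genes rose and 2.39% fell. Ptgs2 rose by 2.29 there as well, and 5 of 18 proliferation genes fell, among them Stmn1, a microtubule regulator (361 and 315 CPM in SD and 95.5, 84.6 and 100.1 CPM in ICB). The fractalkine receptor gene Cx3cr1 fell by 1.34. Without SD tumour 1 or ICB tumour 3, 93 or 124 genes were called in place of 222, and DESeq2 called 35. Summed macrophage markers were 23357 and 25652 CPM in SD and 15754, 15975 and 10136 CPM in ICB, with 1 of 12 raised and 2 lowered, and their part in these changes was not tested.

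The 2 smallest classes, with 2 tumours per group, changed in markers of other cells. In DC_other 0.178% of 3940 genes rose and 0.533% fell. The 3 lowered genes with the smallest adjusted p were those of the complement C1q chains, with C1qa at 861 and 956 CPM in SD and 53.4 and 10.9 CPM in ICB, and summed macrophage markers were 4248 and 3978 CPM in SD and 594 and 591 CPM in ICB. Cxcl10 rose there from 113 and 61.9 CPM to 927 and 941 CPM (log2 fold 3.48, adjusted p = 0.0313). The 28 calls in DC_other became 3 and 1 without SD tumours 1 and 3, 9 without ICB tumour 3 and 45 without ICB tumour 1. In NK cells 0.927% of 1833 genes rose and 4.42% fell, and 69 of the 81 lowered genes encoded ribosomal proteins. Xcl1, a chemokine that attracts cross-presenting dendritic cells, measured 1808 and 1518 CPM in SD and 226 and 338 CPM in ICB (log2 fold -2.60, adjusted p = 5.5e-13). The monocyte receptor gene Cd14 measured 0 and 49.0 CPM in SD and 606 and 257 CPM in ICB, while summed neutrophil markers were 59.7 and 48.9 CPM in SD and 1831 and 95.4 CPM in ICB, and macrophage markers 691 and 1577 CPM in SD and 1158 and 429 CPM in ICB. The part of such cells in these changes was not tested.

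A change that departs from the other classes cancels what the library or the treatment does alike everywhere. For each class, its own log2 fold was set against the mean log2 fold of the other 11 classes, with the tumour as a block, in 1 edgeR model over 8389 genes. Of 100668 pairs of gene and class 75 were called (0.0745%), 15 raised and 60 lowered against the other classes, and 6770 pairs had an unadjusted p under 0.05. The mesenchymal class held 46 of the calls, a number that became 23 and 29 without SD tumours 2 and 3, and 30, 17 and 18 without ICB tumours 1, 2 and 3. For 34.7% of the genes, a class without counts in a group left no finite difference in at least 1 class. Cd8a and Cxcr6 in CD8 T cells were among these and could not be assessed by this model. The 75 calls became 46, 36 and 44 without SD tumours 1, 2 and 3, and 54, 46 and 33 without ICB tumours 1, 2 and 3. In the same order, only 28, 31 and 25, and 27, 27 and 22 of these were among the 75.

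Bst2, an interferon-induced protein that tethers viruses to the cell surface, rose in the cancer and mesenchymal classes against the others. In Prof_cancer it measured 136 and 117 CPM in SD and 392, 522 and 642 CPM in ICB, and its difference from the other classes was 1.98 (SE 0.29, adjusted p = 3.4e-04). In mesenchymal cells it measured 264, 236 and 111 CPM in SD and 589, 532 and 651 CPM in ICB, a difference of 1.45 (SE 0.26, adjusted p = 0.00506). Over the 10 classes other than Prof_cancer with a tested fold, the median for Bst2 was -0.20 and 4 were above 0, among them 1.16 in Cxcr2 neutrophils (adjusted p = 0.236). H2-K1 rose more in mesenchymal cells than elsewhere, by 1.08 (SE 0.19, adjusted p = 0.00260), although all 11 other folds were above 0, with a median of 0.60. In mesenchymal cells of at least 20000 UMIs the difference was 1.22 for H2-K1 (adjusted p = 0.00778) and 1.32 for Bst2 (0.0739). The collagen gene Col1a2 differed by 1.30, while its fold in mesenchymal cells was 0.74 and its median in the other classes was -0.53. Col1a2 was not called in the test of mesenchymal cells alone (edgeR, adjusted p = 0.379). Its levels there overlapped, with 3497, 2202 and 1449.9 CPM in SD and 4301, 4612 and 3019 CPM in ICB. Of the 11 other classes, 0 had a fold above 0.

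The 43 genes lowered in mesenchymal cells against the other classes included genes of leukocytes and of the cell cycle. The smallest adjusted p belonged to Lcp1, the leukocyte actin-bundling protein plastin (110.1, 109 and 116 CPM in SD and 37.1, 36.1 and 40.2 CPM in ICB, difference -1.71), and Cdk1, the mitotic kinase (102, 70.0 and 59.1 CPM in SD and 16.7, 6.85 and 17.7 CPM in ICB, difference -3.47). Both had an adjusted p of 3.4e-04, and neither overlapped between the groups. Lilrb4a (-1.80), Actg1 (-1.02) and the complement receptor gene C5ar1 (-2.40) followed. The differences in depth and in macrophage markers given above apply to these genes, and Cdk1, Actg1 and C5ar1 were not called with limma-voom. In mesenchymal cells of at least 20000 UMIs, 2 genes were raised and 22 lowered against the other classes.

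**Figure D5:**
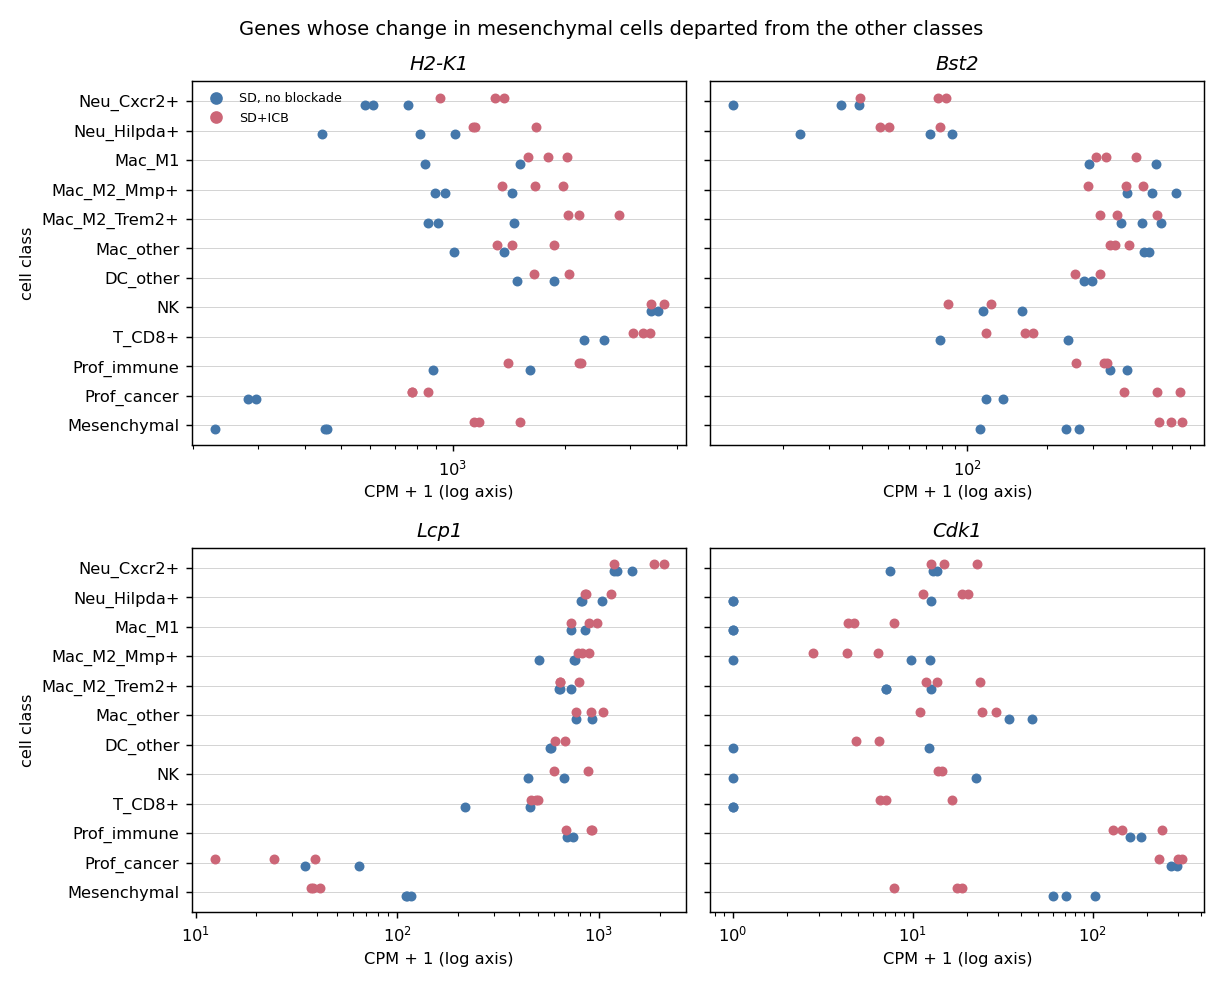
CPM + 1 (log axis) of H2-K1, Bst2, Lcp1 and Cdk1 in 12 classes, each tumour a point (SD blue, ICB red). Bst2 separates the groups upward in mesenchymal cells (111 to 264 CPM in SD and 532 to 651 CPM in ICB) and Prof_cancer, and Lcp1 separates them downward in mesenchymal cells.

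Further pairs were called in immune classes. In CD8 T cells Socs3, a feedback inhibitor of cytokine signalling, measured 297 and 287 CPM in SD and 51.7, 89.1 and 46.9 CPM in ICB, and differed from the other classes by -2.21 (adjusted p = 0.0106). Lgals1, which encodes galectin-1, differed by 1.16 in CD8 T cells (609 and 1099.9 CPM in SD and 1391, 1309 and 1138 CPM in ICB) and by -0.89 in Trem2 macrophages (2027, 1876 and 1927 CPM in SD and 645, 958 and 1139.7 CPM in ICB). It thus departed in opposite directions in these 2 classes. Neither Socs3 nor Lgals1 was called with limma-voom. 1700017B05Rik had no count in the SD tumours and 109.5, 128 and 97.8 CPM in ICB, at least 4.29-fold higher, and 2900060B14Rik differed by -4.77 with unequal SD levels of 359 and 23.9 CPM.

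Other class-specific genes belonged to macrophages and neutrophils. In Mmp macrophages the lysosomal protease gene Ctsl differed by 1.10 (1279.8, 1939 and 1746 CPM in SD and 2145, 3541 and 3000.2 CPM in ICB) and Hmox1, which breaks down haem, by 1.38. In Trem2 macrophages the transcription factor gene Mafk differed by 1.43 (41.0, 20.8 and 46.0 CPM in SD and 120.0, 72.3 and 82.3 CPM in ICB). In Cxcr2 neutrophils Trafd1, a negative regulator of innate signalling induced by interferon, differed by 2.02 (38.8, 17.8 and 18.8 CPM in SD and 99.5, 118 and 91.7 CPM in ICB), and the linker histone gene Hist1h1c by -1.55. In none of these 4 raised genes did the groups overlap, which is no separate support because the genes were chosen by p. Ctsl and Hmox1 were not called in the test of Mmp macrophages alone (edgeR, adjusted p = 0.0575 and 0.195). Of the 5 genes only Trafd1 was also called with limma-voom. The 5 calls in Mmp macrophages became 1, 0 and 1 without SD tumours 1, 2 and 3, and 6, 0 and 0 without ICB tumours 1, 2 and 3. In the same order, the 3 calls in Cxcr2 neutrophils became 0, 1 and 0, and 1, 3 and 0. The 5 calls in Trem2 macrophages became 2, 3 and 0, and 1, 4 and 3. Neither Mac_M1 nor Hilpda neutrophils held a class-specific call in this model (0 in each), with 297 and 457 genes at an unadjusted p under 0.05.

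With limma-voom, which gives finite values to classes without counts, 58 pairs were called, 25 raised and 33 lowered, of which 23 were also called by edgeR. Of the 32 class-specific pairs named by rule, 10 were called by limma-voom as well, among them Bst2 in both classes, H2-K1 and Lcp1 in mesenchymal cells, and Trafd1 in Cxcr2 neutrophils. The other 22 kept their direction and lost the call, among them Cdk1, Actg1, C5ar1 and Col1a2 in mesenchymal cells, Socs3 and Lgals1 in CD8 T cells, Lgals1 and Mafk in Trem2 macrophages, Ctsl and Hmox1 in Mmp macrophages, and Hist1h1c in Cxcr2 neutrophils. Among the pairs called by limma-voom alone, Cxcr6 in CD8 T cells differed from the other classes by 5.27 (SE 0.98, adjusted p = 0.0139). In the Prof_immune class Klre1 and Klrc1, receptors of NK and cytotoxic T cells, differed by 4.22 and 4.06, and Tnfrsf18, the costimulatory receptor GITR, by 3.93. Klre1 stood there at 0 to 2.09 unscaled CPM in SD, near the floor, and at 18.1 to 78.5 in ICB. Summed NK cell markers of this class, Klre1 among them, were 6.28 and 0 CPM in SD and 139, 49.2 and 80.1 CPM in ICB. Summed T cell markers, given above, were also higher in ICB. The part of such cells in these differences was not tested. In mesenchymal cells H2-D1, the second classical class I heavy chain of this strain, differed by 1.02 and Lrrc15, a surface protein of activated fibroblasts, by 4.12. These genes were chosen after their values were seen.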

How the data were processed

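Per the file headers, the deposited gene matrices were made with Cell Ranger 6.1.1, and the submitters' processing notes name R 4.1 and the mm10 build. The deposited expression table holds UMI counts of 18848 genes in 5749 cells, equal to the matrices in all values compared. The deposited cell table gives treatment, tumour, class and the percent of mitochondrial UMIs (medians 1.98 to 3.24), and its classes were used as they stand. How classes were named is not given in the sources used here. No doublet caller was run; a stricter hashtag rule was an alternative.

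For each tumour, the counts of a class with 10 or more cells were added up. Within classes, edgeR 4.0.16 (TMM, filterByExpr, quasi-likelihood) was fitted to all 12 tumours with 4 treatment groups, and adjusted over the genes of a class. This filter can keep a gene expressed in 1 group alone. Counts of list members by sign therefore include genes that may have entered through the group where they were high. The class-specific edgeR model used the 6 tumours with the tumour as a block and was adjusted over all genes and classes. The shared test used limma 3.58.1 on log2 CPM (prior count 2). Shares were compared by exact permutation of the tumour labels in Python, with the adjustment done in scipy 1.17.1. All p are Benjamini-Hochberg adjusted unless called unadjusted, and the threshold was 0.05. Levels of single genes are TMM-scaled CPM, and summed markers are unscaled CPM. The within-class, class-specific, limma-voom and shared fits were checked on simulated data. Folds against a group at 0 use a floor of 3 counts, which covers counting error only. Alternatives were RLE scaling, no filter, DESeq2 1.42.0, limma-voom, other cell minima and leaving out each tumour. Named genes were the 10 best supported in each direction of the shared test, up to 5 a class and direction in the class-specific test, up to 3 within a class, up to 4 of each of 27 lists, and 22 further genes; those outside are marked. Most named genes were chosen by small p, so a lack of overlap between their groups is no separate support. The members and lists were chosen with earlier results of these data known. Promoters came from RefSeq tables of GRCm38.p6, matched by symbol.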

Additional observations from a re-analysis of the deposited data

Results flagged for a closer look

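The blockade contrast of 1 gene differed between the diets by a test of the difference itself. Hcar2, the receptor for the ketone body beta-hydroxybutyrate and for niacin, in Cxcr2 neutrophils measured 1106, 1025 and 788 CPM in SD, 1434, 1607 and 1765 CPM in ICB, 339.8 and 159 CPM in the BD tumours with enough cells, and 2709.9, 2392 and 2581 CPM in the combined tumours. The log2 fold with blockade was 0.73 on standard diet and 3.29 on butanediol, a difference of 2.57 (edgeR, adjusted p = 0.00434 over the 2961 genes of the class). All ICB tumours lay above all SD tumours, and on butanediol the combined tumours lay above both BD tumours. The lone missing BD tumour had fewer than 10 cells of the class. In Mac_M1, Mmp and Trem2 macrophages, the 3 other classes tested for this, edgeR called 0 genes, with 467, 233 and 239 genes at an unadjusted p under 0.05.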

How the results depend on the processing

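Limits: library and blockade cannot be told apart, 3 tumours per group bound the exact tests at p = 0.1, several classes held few SD cells, and class-specific values are missing where a class had no counts. The alternatives on mesenchymal depth, ribosomal protein genes, class filters and limma-voom were chosen after seeing the data.

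The number of genes called within classes, 1505, was 2610 without a filter on low counts, 151 with at least 30 cells per tumour, 854 without ribosomal protein genes, and 825 to 1290 with single tumours left out. Class-specific calls, 75, were 518 without the filter, 48 with all 12 tumours in the fit, 0 with at least 30 cells, 45 with mesenchymal cells of at least 20000 UMIs, and 33 to 54 with single tumours left out. With single tumours left out, 22 to 31 of the 75 pairs kept their call. Shared calls, 587, were 383 to 547 with single tumours left out. The 7 classes without overlap became 4 classes called by edgeR on cell numbers, and 7 to 9 with single tumours left out. DESeq2 called 1349 within-class genes, 922 of them shared with edgeR. Named shared genes kept their call in all 251 pairs of gene and setting, named within-class genes in 939 of 973 and named class-specific genes in 262 of 444, with none reversed.

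The SD and ICB tumours share replicate numbers. Deviations of same-numbered tumours correlated at 0.211, 0.118 and 0.0513 over 1850 genes. SD tumours 1 and 3 correlated best with the ICB tumour of the same number, and SD tumour 2 with ICB tumour 3 (0.134). These correlations were weak, and the numbers were not taken as pairs. With the replicate number as a block, 1884 genes were called within classes and 674 in the shared test.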
